A study of Mus musculus with 96 samples.

Results

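The genes of selenium use described here are 9 of the 24057 genes in the expression table. They are Sephs2, Sephs1, Sepsecs, Pstk and Secisbp2, which act in the making or insertion of selenocysteine, and Gpx1, Gpx4, Txnrd1 and Txnrd2, which encode selenoenzymes. The members were taken by gene symbol, and the family was chosen by the level of Sephs2, which stood among the genes most raised in both knockdown cultures. The difference of Sephs2 between conditions is therefore given as a description with no test, and the other 8 genes were tested. Single-cell RNA-seq had been performed on EL4 cells, a T-lymphoma line of C57BL/6 N mouse origin, infected with viral particles carrying a short hairpin RNA against luciferase (shLuc, the control, labelled WT) or against Ctcf (shCTCF, labelled CTCF-KD). All 4 cultures thus carried a hairpin vector, and populations sorted for GFP some days after infection and showing efficient knockdown were used. Experiment 1 comprised the cultures WT 1 and CTCF-KD 1, and experiment 2, a second knockdown, comprised WT 2 and CTCF-KD 2. Cells had been picked for quality, 24 per culture. It remains unclear from the sources used here whether the knockdown cultures shared a hairpin, and each culture was captured on its own circuit, so culture and circuit cannot be told apart.

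Selenocysteine is the amino acid that carries selenium in selenoproteins, and it is encoded by UGA, which is otherwise a stop codon. Serine loaded on a dedicated tRNA is phosphorylated by the kinase Pstk and converted to selenocysteine by Sepsecs. The selenium donor of that step, selenophosphate, is made by Sephs2, which is itself a selenoprotein. Secisbp2 binds a stem-loop in the 3' end of selenoprotein mRNAs and recruits the elongation factor Eefsec with the loaded tRNA. Sephs1 is a paralog of Sephs2 in which the codon for selenocysteine is missing. Gpx1 and Gpx4 are glutathione peroxidases, of which Gpx4 acts on lipid peroxides in membranes, and Txnrd1 and Txnrd2 are the cytosolic and the mitochondrial thioredoxin reductase. In T cells these enzymes are known for the control of peroxides.

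The stretches below show the recoded codon that makes 5 of the 9 genes selenoproteins, with the aligned stretch of Sephs1 for comparison. They are coding sequence from GENCODE M21 (GRCm38), written on the strand of the gene, with the selenocysteine TGA, or the codon aligned to it in Sephs1, in capitals. For each selenoprotein the transcript with the longest coding sequence that holds a selenocysteine was used, and for Sephs1 the longest coding sequence. Codon numbers hold for those transcripts and can differ in others.
Sephs2: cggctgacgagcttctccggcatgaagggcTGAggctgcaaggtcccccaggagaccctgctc
Sephs1: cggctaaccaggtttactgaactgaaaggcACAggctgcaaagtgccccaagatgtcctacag
Gpx1: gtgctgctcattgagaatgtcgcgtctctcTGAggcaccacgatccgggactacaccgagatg
Gpx4: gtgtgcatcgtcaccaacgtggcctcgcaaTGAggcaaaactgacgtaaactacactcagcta
Txnrd1: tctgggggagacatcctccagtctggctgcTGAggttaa
Txnrd2: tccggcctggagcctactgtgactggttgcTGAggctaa
In Sephs2 the TGA lay at chr7:127273731-127273733 on the minus strand and was codon 63 of 452. In Sephs1 the aligned codon, ACA, lay at chr2:4884497-4884499 on the plus strand and was codon 29 of 392. The codons of Gpx1 (chr9:108339451-108339453, codon 47 of 201) and Gpx4 (chr10:80054737-80054739, codon 129 of 253) were in the inner part of the coding sequence. By contrast, the codons of Txnrd1 (chr10:82896037-82896039) and Txnrd2 (chr16:18477772-18477774) were each followed by 1 further codon and the stop, which are included in the stretches above. The genes without a selenocysteine codon lie at chr5:52640087-52669708 on the minus strand (Sepsecs), chr7:131371141-131394482 on the plus strand (Pstk) and chr13:51651697-51684044 on the plus strand (Secisbp2).

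After 1 cell of WT 2 with 81 detected genes was left out, 95 cells remained, 24 in WT 1, 23 in WT 2, 24 in CTCF-KD 1 and 24 in CTCF-KD 2. The median depth per cell was 131098 whole reads in CTCF-KD 2 and between 230477 and 247586 in the other cultures, so values are least precise in CTCF-KD 2. CTCF-KD cells had more detected genes, with medians of 6172.5 and 5656 against 4771 and 4635 in WT cells. Ctcf itself, the targeted gene, had a mean of 60.3 TPM (transcripts per 1000000) in WT 1 and 16 in CTCF-KD 1, but 37.1 in WT 2 and 44.9 in CTCF-KD 2. Ctcf mRNA was thus not lower in the culture labelled CTCF-KD 2 than in its control, and each direction given for experiment 2 rests on that label. The study checked the knockdown by RT-qPCR and Western blotting before capture. It reported reduced CTCF mRNA and protein in both shCTCF populations, on measurements not used here. The change of Ctcf over all 4 cultures was -0.79 ± 0.66 (log2, SE, limma, adjusted p = 0.815). Of 11 T cell markers 9 had a row in the table and all 9 had reads, with summed levels of 8787 and 8766 TPM in WT and 6393 and 6342 TPM in CTCF-KD. Of the B cell, myeloid, erythroid and fibroblast markers, 1 of 5, 3 of 5, 1 of 3 and 2 of 5 had reads, with Cd79b, Ms4a1, Pax5, Lyz2 and Adgre1 among those at 0, and the summed level of each of these lists was at most 52.1 TPM in any culture. Cd3d, Cd3g and Lck had both CTCF-KD means below both WT means, while the means of Cd3e, Thy1, Ptprc, Cd5, Cd28 and Gata3 overlapped. The part of the lower summed T cell marker level in the results on selenium genes was not tested.

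Sephs2 transcripts were low and uneven in WT cells and present in each CTCF-KD cell. In WT 1 the level ran from 0 to 322 TPM with a median of 12.1, and in WT 2 from 0 to 85.4 TPM with a median of 4.89. In CTCF-KD 1 the lowest cell had 22.7 TPM, the median was 92.5 and the highest cell had 257 TPM. In CTCF-KD 2 the lowest cell had 15 TPM, the median was 75.4 and the highest cell had 552 TPM. The lowest cell of either CTCF-KD culture was therefore above the median of either WT culture, while the ranges of the cells overlapped. Reads were seen in 19 of 24 cells of WT 1 and 18 of 23 cells of WT 2, against 24 of 24 in each CTCF-KD culture. The culture means were 29.8 ± 64.5 and 12.5 ± 18.5 TPM in WT (SD over cells) and 113 ± 70.5 and 108 ± 109 TPM in CTCF-KD, and both CTCF-KD means lay above both WT means. The ratio of the means was 3.8 in experiment 1 and 8.68 in experiment 2, or 1.89 and 3.02 as differences in log2(mean TPM + 1). On counts alone, the level was 31 RPM (reads per 1000000 reads of the culture) in WT 1 (95% exact Poisson interval 26.8 to 35.7, 192 reads), 11.5 in WT 2 (8.81 to 14.7, 63 reads), 138 in CTCF-KD 1 (128 to 148, 774 reads) and 95.3 in CTCF-KD 2 (84.9 to 107, 308 reads). Such intervals cover counting error only, since reads without molecular identifiers are not independent molecules. The cell at 322 TPM in WT 1 stood far above the median of its culture. Over 11980 genes, Sephs2 ranked 192 by the smaller of its changes in experiment 1 and experiment 2, and 46 when log2(TPM + 1) averaged over cells was used. These ranks describe the choice of the gene.

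**Figure D1:**
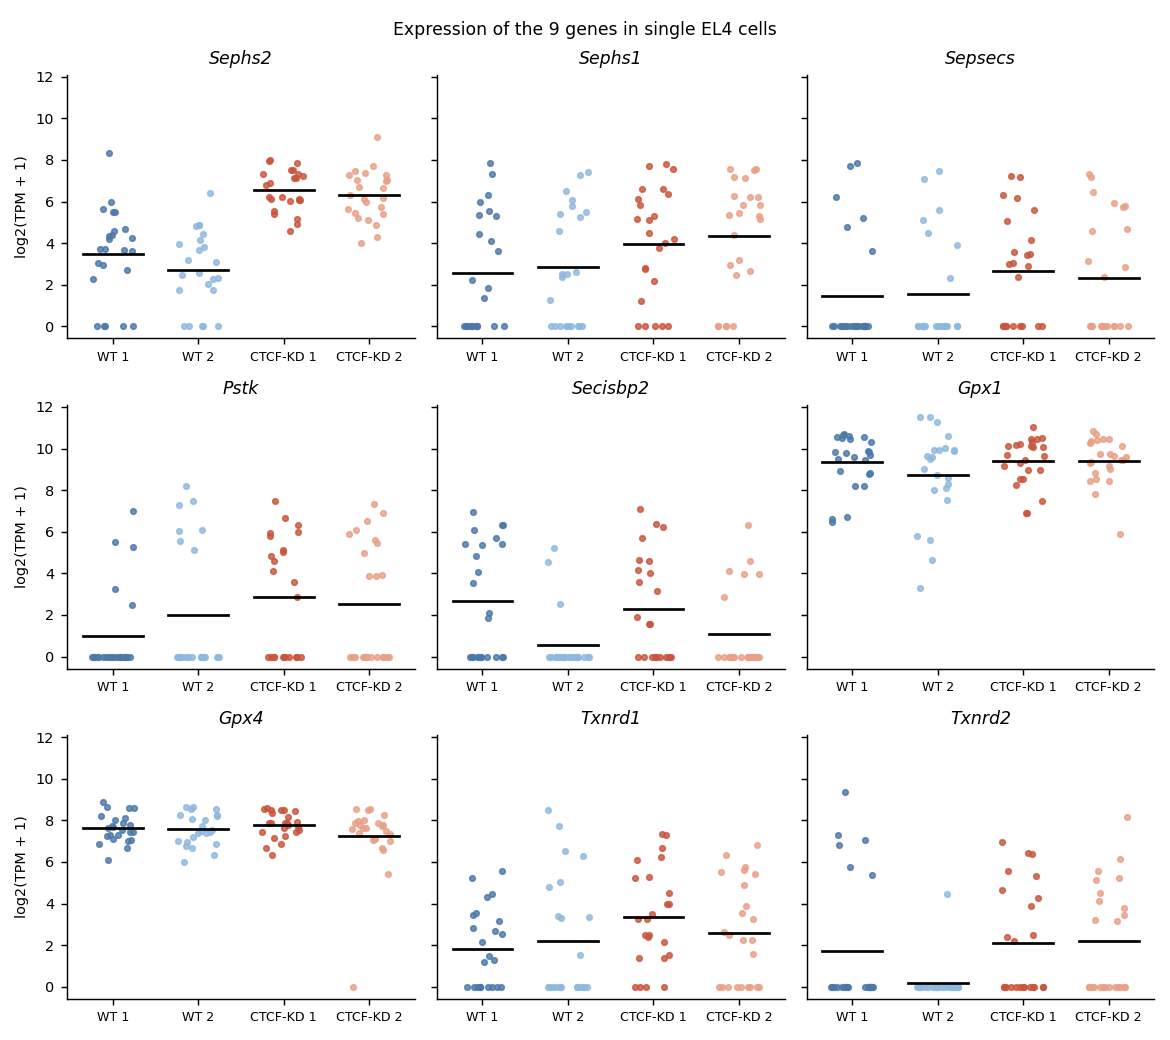
Level of each of the 9 genes in single cells on the vertical axis, as log2(TPM + 1), by culture on the horizontal axis. Each point is 1 cell, with a small random sideways offset, and the bar is the culture mean. Sephs2 is above 0 in all 24 cells of each CTCF-KD culture, Gpx1 is above 0 in all 95 cells, and Sepsecs, Pstk, Secisbp2 and Txnrd2 are at 0 in many cells of each culture.

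Sephs1, the paralog without selenocysteine, also had higher values in CTCF-KD in both experiments, with smaller ratios than Sephs2. Its means were 29.7 ± 56.8 TPM in WT 1 and 30.5 ± 48.8 in WT 2, against 50.3 ± 67.9 in CTCF-KD 1 and 57.6 ± 64.5 in CTCF-KD 2 (SD over cells). The means of the conditions did not overlap, with ratios of 1.69 and 1.89. The change was 0.82 ± 0.47 (log2, SE) and did not pass the test (limma, adjusted p = 0.752). The ratio of mean Sephs2 to mean Sephs1 TPM was 1.00 in WT 1, 0.408 in WT 2, 2.26 in CTCF-KD 1 and 1.88 in CTCF-KD 2, so Sephs2 had the higher mean of the paralogs in both CTCF-KD cultures. Both transcripts were seen together in 12 of 24 and 12 of 23 WT cells and in 19 of 24 cells of each CTCF-KD culture. Neither was seen in 4 and 3 WT cells and in 0 CTCF-KD cells. Sephs2, by which the family was chosen, was seen in each CTCF-KD cell. The ratio and these counts are therefore descriptions that in part restate that choice.

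Sepsecs, the enzyme that uses selenophosphate to form selenocysteine on its tRNA, had similar mean TPM in CTCF-KD and WT 1 and a lower mean in WT 2. Its means were 24.3 ± 62.3 and 18.7 ± 45.3 TPM in WT and 24.8 ± 43.4 and 25.9 ± 45.6 TPM in CTCF-KD. The change was 0.24 ± 0.60 (log2, SE, limma, adjusted p = 0.952), 0.97 with log2(TPM + 1) averaged over cells, 0.057 without WT 2 and 0.42 without WT 1. In RPM, Sepsecs was at 14.9 (11.9 to 18.5) in WT 2 and 26.6 (21.3 to 32.9) in CTCF-KD 2 (95% exact Poisson intervals), with 24.7 in WT 1 and 25.5 in CTCF-KD 1. Pstk, the kinase one step before, had 9.31 ± 28 TPM in WT 1, 36.7 ± 75.4 in WT 2, 28.6 ± 43.5 in CTCF-KD 1 and 27.4 ± 43.5 in CTCF-KD 2. Both CTCF-KD means lay between the WT means, and the direction differed between experiments (1.52 and -0.41). The change of Pstk was 0.56 ± 0.79 (log2, SE, limma, adjusted p = 0.899), and it was -0.38 without WT 1.

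Secisbp2, the binding protein of the stem-loop, had higher levels in experiment 1 than in experiment 2 in both conditions. Its means were 24.2 ± 33.9 TPM in WT 1 and 18.7 ± 34.2 in CTCF-KD 1, against 2.73 ± 8.61 in WT 2 and 6.42 ± 16.9 in CTCF-KD 2. Reads were seen in 13 of 24 cells of each culture of experiment 1, and in 3 of 23 and 6 of 24 cells of experiment 2. The CTCF-KD minus WT change was 0.32 ± 1.17 (log2, SE, limma, adjusted p = 0.972), and it was -1.06 without WT 2 and -0.39 without CTCF-KD 1. The difference of experiment 2 from experiment 1, a contrast that the choice of genes did not use, was -2.08 ± 0.81 (log2, SE), with both means of experiment 2 below both of experiment 1. It did not pass the threshold after adjustment (limma, adjusted p = 0.378).

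Gpx1, the abundant cytosolic glutathione peroxidase, was the highest of the 9 genes and differed little between cultures. The culture means were 869 ± 520 and 853 ± 870 TPM in WT and 849 ± 500 and 840 ± 471 TPM in CTCF-KD. The CTCF-KD means lay just below the WT means, with ratios of 0.977 and 0.985, and the change of -0.03 ± 0.27 (log2, SE) did not pass the test (limma, adjusted p = 0.991). With log2(TPM + 1) averaged over cells the direction turned, to 0.36. The lowest cell of WT 2 had 8.72 TPM, while the lowest cells of the other cultures had 57.4 to 119 TPM. Gpx1 alone made up 32.4% and 29% of the TPM summed over the selenoprotein genes in WT, and 35.6% and 30.1% in CTCF-KD. That sum was 2683 and 2944 TPM in WT and 2385 and 2786 TPM in CTCF-KD, so its ranges overlapped.

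Gpx4, which reduces lipid hydroperoxides, was steady as well. Its means were 216 ± 104 and 214 ± 106 TPM in WT and 239 ± 93.9 and 199 ± 95.7 TPM in CTCF-KD, and the WT means lay between those of CTCF-KD. The change was 0.02 ± 0.31 (log2, SE, limma, adjusted p = 0.997), and it was -0.11 without CTCF-KD 1. All cells except 1 of CTCF-KD 2 had reads, and that cell had 0.

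The thioredoxin reductases were lower and uneven, and each had differences of opposite sign in experiment 1 and experiment 2. Txnrd1, the cytosolic enzyme, had 7.36 ± 12.2 TPM in WT 1, 36 ± 85.5 in WT 2, 30.8 ± 48.1 in CTCF-KD 1 and 19.1 ± 29.5 in CTCF-KD 2. The means of CTCF-KD lay between those of WT. Its change of 0.52 ± 0.88 (log2, SE) did not pass the test (limma, adjusted p = 0.921), and it was -0.55 without WT 1. In WT 2 the highest cell had 358 TPM and the median cell had 0.

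Txnrd2, the mitochondrial enzyme, had 47.7 ± 136 TPM in WT 1 and 0.902 ± 4.32 in WT 2, the latter from 4 reads in 1 of 23 cells. In WT 1 the mean came from 6 of 24 cells, the highest at 651 TPM. The CTCF-KD means of 18.7 ± 33.8 and 22.7 ± 58.2 TPM lay between the WT means, and reads were seen in 11 of 24 cells of each CTCF-KD culture. In RPM, WT 2 had 0.728 (95% exact Poisson interval 0.198 to 1.86), against 43.9 (38.9 to 49.5) in WT 1. The change of 1.17 ± 1.49 (log2, SE) did not pass the test (limma, adjusted p = 0.884), and it was -1.17 without WT 2. Exons of Pstk, described above, share 4652 bases with Ikzf5 on the opposite strand. Exons of Sephs2 share 792 bases with Gm44729, a gene on the opposite strand that was not among the genes counted. Whether reads were counted by strand is not given in the sources used here. Ikzf5 had 7.26 and 6.61 TPM in WT and 6.19 and 7.28 TPM in CTCF-KD.

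**Figure D2:**
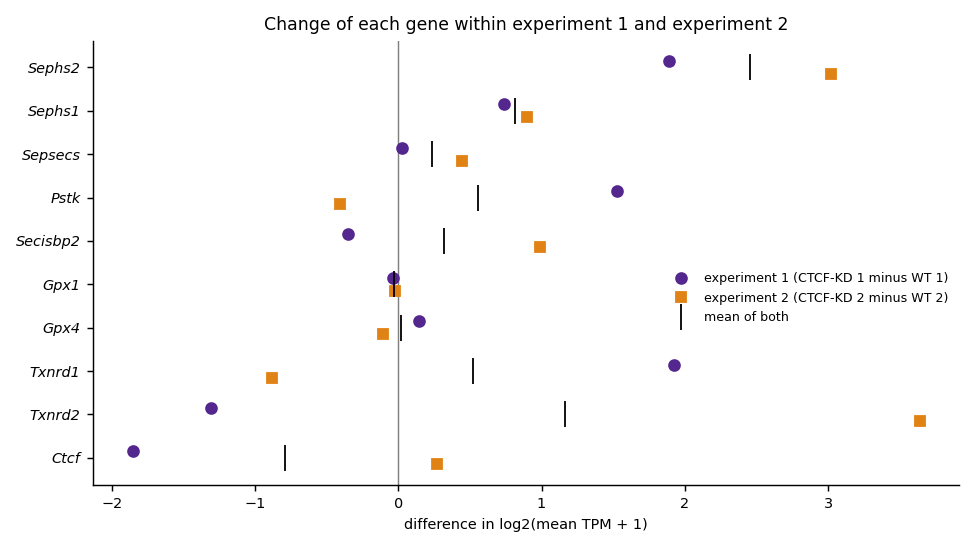
Change of the 9 genes and of Ctcf on the horizontal axis, as the difference in log2(mean TPM + 1), with 1 gene per row. Circles are CTCF-KD 1 minus WT 1, squares are CTCF-KD 2 minus WT 2 and bars are the mean of both. Sephs2 (1.89 and 3.02) and Sephs1 (0.74 and 0.90) are higher in both experiments, while Pstk, Secisbp2, Gpx4, Txnrd1, Txnrd2 and Ctcf have opposite signs.

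All 9 genes passed the filter on low values, log2(TPM + 1) above 1 in at least 2 cells, and 8 were tested with limma on culture values. None of the 8 was called at an adjusted p of 0.05, and of all 11980 genes tested 0.0% were called higher and 0.0% lower. At an unadjusted p under 0.05, 0 of the 8 and 574 higher and 338 lower of all genes passed. With log2(TPM + 1) averaged over cells as the culture value, 0 of the 8 were called, against 0.367% of all genes called higher and 0.0167% lower. A fit with cells in place of cultures, whose p-values are too small since cells of a culture are not replicates, called 0 of the 8, 10.7% of all genes higher and 1.03% lower, and is given for its counts alone. Sephs1 and Sepsecs, 2 of the 8, had both CTCF-KD means above both WT means, as had 19.9% of all genes. Gpx1 was the 1 gene of the 8 with both CTCF-KD means below both WT means, as were 16.9% of all genes. The median change of the 8 was 0.42, and that of all genes was 0.04. Within experiment 1 and experiment 2 the medians of the 8 were smaller, at 0.08 and 0.21, against 0.04 and 0 for all genes. With 2 cultures per condition, the smallest p of an exact permutation test is 0.333, so single values could not pass a threshold of 0.05. For the difference between experiments, none of the 9 genes was called, and of all genes 0.0% were called higher and 0.00835% lower in experiment 2 (limma, with 1022 higher and 523 lower at an unadjusted p under 0.05).

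Transcripts of 5 of the less abundant genes were seen in a larger share of cells in both CTCF-KD cultures than in both WT cultures. For Sepsecs the share of cells with reads was 25% and 30.4% in WT and 58.3% and 45.8% in CTCF-KD. For Pstk it was 20.8% and 30.4% against 54.2% and 45.8%. For Txnrd1 it was 58.3% and 43.5% against 83.3% and 62.5%. For Txnrd2 it was 25% and 4.35% against 45.8% in both, and for Sephs1 54.2% and 60.9% against 79.2% in both. In these 5 of the 8 genes both CTCF-KD shares were above both WT shares, which held for 36.2% of all genes. Each difference, of 21.6 to 31.2 percentage points, had p = 0.333, the smallest that the exact permutation test over cultures allows (two-sided, 8 genes tested). For Secisbp2 the difference was 5.98 points, and Gpx1 and Gpx4 were at or near 100% in each culture. CTCF-KD cells had more genes detected, as given above, and the part of this in the shares was not tested.

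At equal depth the order was kept. With each cell thinned to 80000 reads, which left out 1 cell of CTCF-KD 2, the shares of Sepsecs were 25% and 26.1% in WT and 45.8% and 34.8% in CTCF-KD. The same 5 genes had both CTCF-KD shares above both WT shares, as had 38.6% of all genes. Sephs2, described with no test, was seen in 54.2% and 43.5% of the thinned WT cells and in 100% of the thinned CTCF-KD cells of both cultures. Unthinned, its shares were 79.2% (95% Clopper-Pearson interval 57.8 to 92.9) and 78.3% (56.3 to 92.5) in WT and 100% (85.8 to 100) in each CTCF-KD culture. The median number of the 9 genes seen in a cell, unthinned, was 5 in each WT culture, 7 in CTCF-KD 1 and 6 in CTCF-KD 2. That number includes Sephs2, by which the family was chosen. Medians over all genes were also higher in CTCF-KD, at 6172.5 and 5656 detected genes against 4771 and 4635 in WT.

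**Figure D3:**
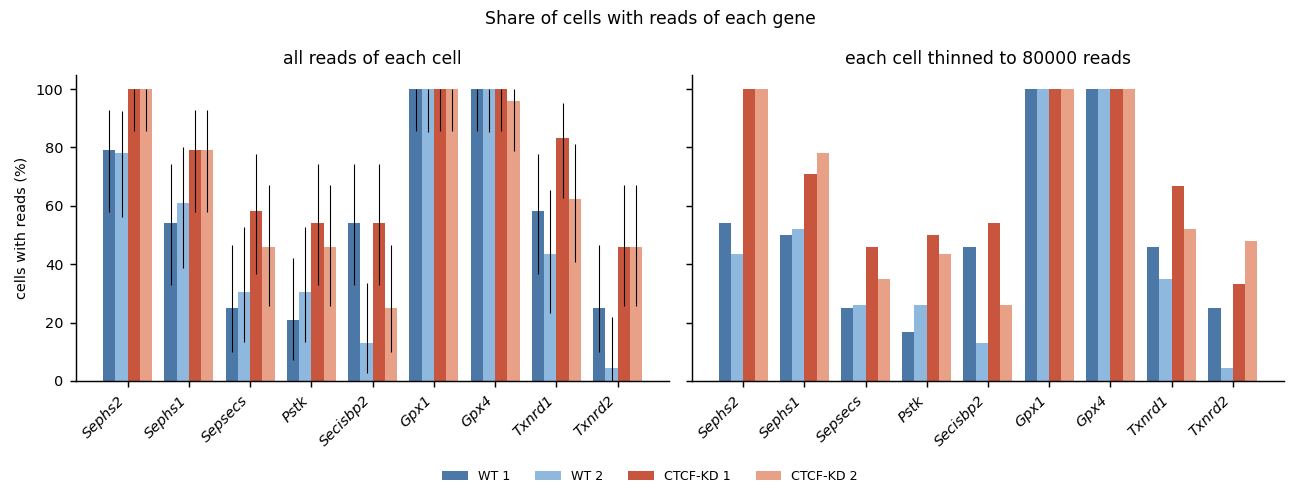
Share of cells with reads of each of the 9 genes on the vertical axis, in percent, with 1 bar per culture. The left panel uses all reads with 95% Clopper-Pearson intervals and the right panel uses cells thinned to 80000 reads. For Sephs1, Sepsecs, Pstk, Txnrd1 and Txnrd2 both CTCF-KD bars are above both WT bars in each panel, and Gpx1 is at 100% throughout.

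Cell-to-cell variation was measured by the study as the coefficient of variation (CV), here of log2(TPM + 1) across all cells of 1 condition, as SD divided by mean. A gene was called when its CTCF-KD minus WT difference lay over 1 SD from the mean difference of 7843 genes, which was -0.28. The CV of Sephs2 was 0.663 in WT and 0.169 in CTCF-KD, a difference of -0.49 that stayed within that range. Of the other 8 genes, Pstk (1.81 and 1.06) and Txnrd2 (2.49 and 1.20) were called as lowered, 2 of 8 against 11.3% of all genes. None of the 8 was called as raised, against 7.68% of all genes. Gpx4 had the smallest CV in WT (0.0942) and a larger one in CTCF-KD (0.172), where 1 cell was at 0. That cell, of CTCF-KD 2, had the highest Sephs2 (552 TPM) and the lowest Gpx1 (57.4 TPM) of its culture. It was also the cell left out of the thinning to 80000 reads. The CVs of the remaining genes were lower in CTCF-KD and were not called, as for Sepsecs (1.73 in WT and 1.08 in CTCF-KD) and Gpx1 (0.197 and 0.117). Measured against genes of the same mean level, as the residual from a running median, the CV of Pstk was no longer called and Txnrd2 remained the 1 gene called as lowered. On that residual the difference was 0.13 for Sephs2 and Gpx4, 0.055 for Sephs1 and 0.035 for Secisbp2 and Txnrd1, with none of them called. It was -0.075 for Sepsecs, -0.094 for Pstk, -0.052 for Gpx1 and -0.36 for Txnrd2. The lower CV of Sephs2 in CTCF-KD was thus not seen at a given mean level. In experiment 1 alone Sepsecs and Pstk were called as lowered, and in experiment 2 alone Secisbp2 and Txnrd2, the latter with a CV in WT 2 that rests on the 1 cell with reads. With the CV of linear TPM, Txnrd1 and Txnrd2 were called as lowered and Pstk was not, and Sephs2 was past the limit as well (-1.44).

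**Figure D4:**
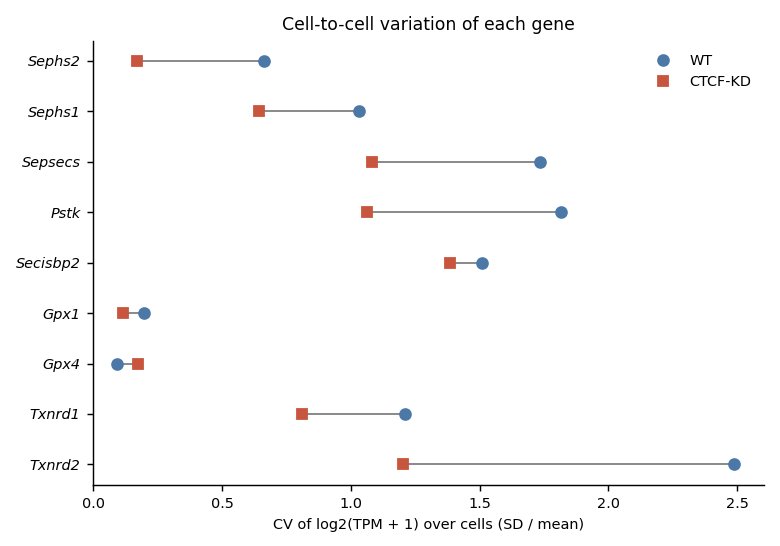
CV of log2(TPM + 1) across all cells of 1 condition on the horizontal axis, with 1 gene per row. Circles are WT and squares are CTCF-KD. The CV is lower in CTCF-KD for all genes shown except Gpx4 (0.0942 in WT and 0.172 in CTCF-KD), and the widest gap is that of Txnrd2.

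Across single cells, the 9 genes showed little common variation. After removal of culture means, Pearson's r of log2(TPM + 1) over 95 cells lay between -0.32 and 0.23 for the 36 pairs, with a median of -0.00091. The lowest, -0.32, was that of Sephs2 with Gpx1, and within cultures it was -0.14, -0.47, 0.0015 and -0.63 in WT 1, WT 2, CTCF-KD 1 and CTCF-KD 2. In CTCF-KD 2 the cell with the highest Sephs2 (552 TPM) also had the lowest Gpx1 (57.4 TPM). Its part in that r was not tested. Cells of a culture share a circuit, and correlations of such sparse values are given as a description. The 5 of 7843 genes whose levels were most like those of Sephs2 over cells were Mki67 (r = 0.51), Tuba1b (0.50), Hmgb2 (0.49), Nusap1 (0.48) and Tubb5 (0.46). Within single cultures, r ran from 0.23 to 0.66 for Mki67, 0.29 to 0.60 for Tuba1b and 0.45 to 0.56 for Hmgb2. It ran from 0.39 to 0.63 for Nusap1 and 0.21 to 0.55 for Tubb5. Mki67 encodes the Ki-67 antigen, Tuba1b and Tubb5 encode tubulins, Hmgb2 a chromatin protein and Nusap1 a protein of the spindle. The same 5 genes ranked first with Spearman's rho and after removal of the number of genes detected per cell. Between conditions, the changes in experiment 1 and experiment 2 were 0.39 and 0.038 for Tuba1b, 0.57 and -0.21 for Tubb5, -0.18 and -0.056 for Hmgb2, -0.63 and -0.16 for Nusap1 and -0.07 and -1.88 for Mki67.

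The other genes of the pathway were taken from lists of known members. For selenocysteine synthesis and insertion, 7 of 8 genes besides the 9 passed the filter and 0 were called in either direction (limma), with a median change of 0.19. Eefsec, the elongation factor for selenocysteine, had 37.4 and 39.4 TPM in WT and 79.1 and 72.2 TPM in CTCF-KD, so the means did not overlap. Its change of 0.96 ± 0.43 (log2, SE) did not pass the test (limma, adjusted p = 0.665). Trnau1ap, which binds the selenocysteine tRNA, had a change of 0.70 ± 0.78 and was at -0.09 without WT 2 and -0.19 without CTCF-KD 1. Sars, the synthetase that loads serine, had -0.31 ± 0.32, and Lrp8, a receptor for selenoprotein P, had -0.04 ± 0.89. The sign of Sars and Lrp8 turned when log2(TPM + 1) averaged over cells was used (0.04 and 0.016), and that of Lrp8 also without WT 2 (0.35) or CTCF-KD 1 (0.47).

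Of the 19 other selenoproteins listed, 14 passed the filter and 0 were called (limma), with a median change of -0.01. Selenow, a small selenoprotein listed in the table as Sepw1, had 623 and 570 TPM in WT against 280 and 349 TPM in CTCF-KD. Both CTCF-KD means were below both WT means, and the change of -0.93 ± 0.30 (log2, SE) did not pass the test (limma, adjusted p = 0.597). Selenok, a protein of the endoplasmic reticulum listed as Selk, had 272 and 339 TPM in WT and 198 and 215 TPM in CTCF-KD, a change of -0.56 ± 0.31. In the opposite direction, Selenos, an endoplasmic reticulum protein listed as Vimp, had 71.8 and 73.3 TPM in WT and 97.7 and 201 TPM in CTCF-KD, a change of 0.94 ± 0.46, which was 0.42 without CTCF-KD 2, 1.46 without CTCF-KD 1 and 2.86 with log2(TPM + 1) averaged over cells. Selenoi, a phospholipid enzyme listed as Ept1, had 14.8 and 19.3 TPM in WT and 26.7 and 32.2 TPM in CTCF-KD, a change of 0.76 ± 0.61, or 1.62 with that average. The means of the conditions did not overlap for these 4 genes, and none passed the test. Over the list, 2 genes had both CTCF-KD means above both WT means and 3 below, against 19.9% and 16.9% of all genes. Of the 19, 18 had a row in the table, and Gpx2, Selenop and Dio3 had no value above 0 in any cell kept.

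Among enzymes related to selenoproteins but built without selenocysteine, Msrb2 and Msra, reductases of oxidised methionine, were the 2 of 7 that passed the filter. Their changes were -0.33 ± 0.39 and -0.16 ± 0.50, and that of Msra turned to 0.98 with log2(TPM + 1) averaged over cells, 0.16 without WT 1 and 0.26 without CTCF-KD 2. Of the 21 thioredoxin and glutathione partners, 20 passed the filter and 0 were called (limma), with a median of 0.18. Glrx5, a mitochondrial glutaredoxin of iron-sulphur cluster assembly, had 8.47 and 28.4 TPM in WT and 47.5 and 44.8 TPM in CTCF-KD, a change of 1.5 ± 0.71, which was 0.68 without WT 1 and 2.31 without WT 2. Glrx2, another mitochondrial glutaredoxin, had 1.47 ± 0.94 (0.71 without CTCF-KD 2 and 2.23 without CTCF-KD 1), Gclc, the catalytic subunit for glutathione synthesis, had -0.58 ± 0.58 (-0.24 without WT 1 and -0.92 without WT 2), and Prdx2, a peroxiredoxin, had -0.25 ± 0.29. For Gclc and Prdx2 the sign turned with log2(TPM + 1) averaged over cells (0.28 and 0.09). In this list 7 genes had both CTCF-KD means above both WT means and 2 below, against 19.9% and 16.9% of all genes.

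Of the 12 genes for NRF2, the factor that raises many antioxidant enzymes, and its textbook targets, 11 passed the filter and 0 were called (limma), with a median of 0.24. Hmox1, haem oxygenase, had 433 and 156 TPM in WT and 81.7 and 189 TPM in CTCF-KD, so the means overlapped, with a change of -1.06 ± 0.61, which was -0.32 without WT 1 and -0.46 without CTCF-KD 1, and -1.79 without WT 2 and -1.66 without CTCF-KD 2. Keap1, the inhibitor of NRF2, had a change of 1.30 ± 0.85, with 0.13 in experiment 1 and 2.48 in experiment 2, and it was 0.50 without WT 2 and 2.10 without WT 1. The enzymes of the pentose phosphate pathway Taldo1 and Tkt had 0.46 ± 0.32 and -0.37 ± 0.37. With log2(TPM + 1) averaged over cells Taldo1 was at 1.32 and Tkt turned to 0.39, and Taldo1 was at 0.25 without WT 1.

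**Figure D5:**
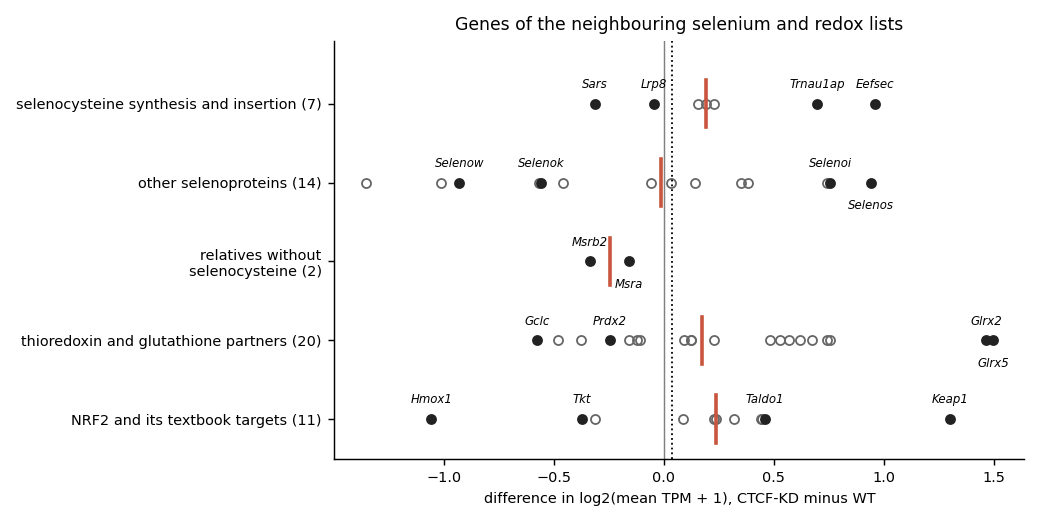
Change of the list genes that passed the filter on the horizontal axis, as CTCF-KD minus WT difference in log2(mean TPM + 1), by list on the vertical axis with the number tested. Filled circles are the named genes, open circles the others, red bars the list medians and the dotted line the median of all genes (0.04). The medians lie between -0.25 and 0.24, with genes of each list of 7 or more on both sides of 0.

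Promoter windows of 250 bases before the RefSeq start (GRCm38.p6) were found for 8 of the 9 genes, 14 windows in all. The window of Sephs2 is shown since its transcript carries the largest difference that was seen in both experiments among the 9. It lay at chr7:127274060-127274309 on the minus strand, and capitals mark the E-box CACGTG and, apart from it, the CCAAT box, which is on the other strand and reads ATTGG.
Sephs2 promoter: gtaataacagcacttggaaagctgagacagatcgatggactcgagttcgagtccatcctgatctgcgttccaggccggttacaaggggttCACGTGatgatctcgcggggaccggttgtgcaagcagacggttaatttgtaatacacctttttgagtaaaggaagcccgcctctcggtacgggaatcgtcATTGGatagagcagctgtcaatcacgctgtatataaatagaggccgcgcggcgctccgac
The E-box CACGTG was found in 2 of the 14 windows, of Sephs2 and Secisbp2, and in 6.02% of 32851 windows of all genes (searched on both strands). The CCAAT box was found in 5 of the 14, of Sephs2, Gpx4 and Txnrd1, and in 33.9% of all windows. The antioxidant response element core TGACNNNGC was found in 1 of the 14, of Txnrd1, and in 10.2% of all windows. The letters CCCTC, part of the CTCF motif, were found in 7 of the 14 and in 60.6% of all windows. Those 7 were windows of Sephs1, Pstk, Gpx4 and Secisbp2, and that of Sephs2 was not among them. These matches describe letters and not sites.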

How the data were processed

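Single-cell RNA-seq was performed by the authors with the SMARTer protocol on the C1 system. Reads were aligned to GRCm38 with STAR, unique alignments were counted with HTSeq on 24057 RefSeq genes, and the authors deposited TPM values, scaled by gene length and cell total. The members and gene lists were chosen with earlier results of these data known. Cells under 3000 genes were left out (1 of 96). Whole reads were recovered from the TPM steps, within 0.001 of a whole read for 100% of 504605 values, and used for depth, RPM and thinning. Counts would be too low for a gene whose smallest step held more than 1 read, and a gene seen in 1 cell could not be checked. The total depth was 3232422 to 6192121 reads per culture.

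The culture was the replicate (2 per condition). limma 3.58.1 with a trend (R 4.3.3) was fitted on log2(mean TPM + 1), two-sided with Benjamini-Hochberg adjustment over 11980 genes, and fold changes of low genes are understated by the pseudocount of 1. Shares were compared by exact permutation over cultures for the 8 genes, and the p-values adjusted over them are not given, since they were chosen with results known. No pair of cells had identical values. The culture number marks the experiment and so pairs the samples. Deviations from the condition means of same-numbered cultures had r = 0.175 over the 11980 genes tested and 0.275 over the 7843 genes of the CV comparison. Scripts were tested on simulated data. Named were the 9 genes, Ctcf, the genes of each list called or else the 2 highest and 2 lowest limma statistics, the 5 genes most like Sephs2 and genes with overlapping exons, of which 1 is not reported here. Sequences are from GENCODE M21 transcripts and RefSeq promoters. Alternatives covered the mean, pseudocount, filters, scaling, depth, cells as replicates, the experiment as a block and single cultures left out.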

Additional observations from a re-analysis of the deposited data

Results flagged for a closer look

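The changes of 6 genes had opposite signs in experiment 1 and experiment 2, and with 1 culture per condition in each experiment these differences were not tested. The change in experiment 2 minus that in experiment 1 (differences in log2(mean TPM + 1)) was 4.95 for Txnrd2, from -1.31 to 3.64, where WT 2 had 4 reads in 1 cell. It was -2.81 for Txnrd1, from 1.93 to -0.88, and -1.93 for Pstk, from 1.52 to -0.41. It was 1.34 for Secisbp2, from -0.35 to 0.99, and -0.25 for Gpx4, from 0.14 to -0.11. For Ctcf, the targeted gene, it was 2.12, from -1.85 to 0.27. The cell left out of WT 2 had 0 reads of the 9 genes among 90 reads.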

How the results depend on the processing

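Of 541 alternative values, 489 kept their direction and side of the threshold or stayed within the spread, and 37 reversed. A further 4 were classed as stronger and 11 as moved. Among the stronger were Selenoi, Glrx2 and Glrx5 with cells as replicates, a fit whose p-values are too small. None of the 8 tested genes was called under any of the 16 alternatives, and the changes of Sephs2 (1.86 to 3.33), Sephs1 (0.45 to 1.47) and Sepsecs (0.06 to 0.97) kept their sign. With the experiment as a replicate block (paired fit), 0 genes were called, higher or lower, and no call changed. With the mean over cells of log2(TPM + 1), which moved the median of all genes from 0.04 to 0.23, 44 genes were called higher and 2 lower, and with cells as replicates, whose p-values are too small, 1280 and 123. Leaving out 1 culture also gave 0 calls, in fits where the lone culture is assumed to vary like the other condition. As 0 genes were called with all 4 cultures, no call could be lost. The median of all genes was 0.16 without WT 2 and 0.12 without CTCF-KD 1.

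With the mean of log2 and with cells as replicates, the change was 0.36 and 0.35 for Gpx1, -0.074 and -0.075 for Gpx4, 0.28 and 0.28 for Gclc, 0.016 and 0.024 for Lrp8, 0.98 and 0.98 for Msra, 0.088 and 0.090 for Prdx2, 0.042 and 0.037 for Sars, and 0.39 and 0.38 for Tkt. Reversals with other settings were Gpx1 at 0.013 in RPM and 0.0030 with no minimum of genes per cell, and Gpx4 at -0.010 with median ratio scaling. With genes detected removed, a setting that also averages log2(TPM + 1) over cells, Gpx1 was at 0.15, Gpx4 at -0.41, Secisbp2 at -0.34 and Msra at 0.12. The same average without that removal gave 0.36 for Gpx1, -0.074 for Gpx4, 0.078 for Secisbp2 and 0.98 for Msra. Of these 4, only Secisbp2 thus differed in sign between the average with and without the removal. With at least 4000 genes per cell, Lrp8 was at 0.091 and Msra at 0.016. Leaving out 1 culture gave ranges of -0.11 to 0.15 for Gpx4, -0.55 to 0.47 for Lrp8, -0.58 to 0.26 for Msra, -0.38 to 1.49 for Pstk, -1.06 to 1.70 for Secisbp2, -0.19 to 1.58 for Trnau1ap, -0.55 to 1.60 for Txnrd1 and -1.17 to 3.51 for Txnrd2. The causes were not tested.

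The number of the 8 genes with a lowered CV was 0 with a pseudocount of 10. It was 1 with the residual from the running median or the filter on 2 cells, and 1 gene, Gpx4, was raised with a pseudocount of 10. With a pseudocount of 0.1, Sepsecs, Pstk, Secisbp2 and Txnrd2 could not be compared, since a mean was not above 0. Sephs1, Gpx1, Gpx4 and Txnrd1 were not called with that pseudocount. There, means near 0 made the SD of the CV differences 39.9, which leaves that alternative uninformative. The 4 cultures and the lower depth of CTCF-KD 2 limit the precision.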
